A study of Homo sapiens with 6 samples.

Results

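The 10 genes described here are DUSP4, DUSP5, DUSP6, SPRY2, SPRY4, SPRED1, ETV4, ETV5, PHLDA1 and EGR1, which are commonly read as transcriptional outputs and feedback inhibitors of the RAS to ERK branch of MAPK signaling. They were taken by symbol from the deposited table, and all 10 had exactly 1 row among its 12499 genes. HaCaT cells, an immortalized human keratinocyte line, carried either LV-ATF7, a lentivirus with the ATF7 coding sequence, or the negative control lentivirus LV-NC. Infection lasted 48 hours and a further 24 hours of culture in high glucose followed in both groups. Each group had 3 RNA-seq libraries, and all 6 were in high glucose, so nothing here compares glucose levels. The study made these libraries to look for genes that lie downstream of ATF7, a CREB/ATF family transcription factor.

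In this pathway, growth factor receptors act through RAS, RAF and MEK to phosphorylate ERK, and active ERK moves to the nucleus and switches on a set of rapid target genes. Several of these targets act back on the cascade. The DUSP proteins described here remove phosphate from MAP kinases, Sprouty and SPRED proteins restrain signaling between the receptor and RAF, and ETV4 and ETV5 are ETS transcription factors whose genes are repressed by Capicua (CIC) until ERK relieves that repression. In keratinocytes the cascade is known for driving proliferation and migration after wounding.

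The libraries held 16686472 to 20562768 counts each. ATF7 itself, the gene that the virus was built to raise, went against the labels. Its level was 50.6, 46.4 and 52.2 CPM (counts brought to a common library size by trimmed mean of M values, TMM) in LV-NC replicates 1, 2 and 3, and 21.9, 25.7 and 28.0 CPM in LV-ATF7 replicates 1, 2 and 3. ATF7 was thus lower in every library labelled LV-ATF7, with a log2 fold change of -0.98 ± 0.12 (SE, adjusted p = 0.000189, edgeR quasi-likelihood test). Of its annotated exon bases, 18.2% are shared with other genes on the same strand and 27.1% with genes on the opposite strand. Whether the deposited counts include transcripts of the vector was not tested. Every direction below therefore rests on the labels, and the groups are named as the libraries labelled LV-ATF7 and LV-NC. LV-NC replicate 1 stood apart from the others of its group, with Pearson correlations across genes of 0.967 and 0.969 with LV-NC replicates 2 and 3, against 0.994 between those. For each of the 10 genes, and for the other genes named with a test, the value without it is given as well. For ATF7 it was -0.99. No label says that the replicates were separate cultures, so p-values measure the spread between these libraries, which may be technical.

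Markers of the labelled cell type and of others differed between the groups, in both directions. Among 8 keratinocyte markers, 5 were higher and 1 lower in LV-ATF7 by the adjusted test, beside 34.7% and 32.9% of all genes tested. Their summed level was 1875 to 2863 CPM in LV-NC and 6989 to 7557 CPM in LV-ATF7. KRT5, a basal keratin, was at 99.96, 355 and 344 CPM in LV-NC and 3224, 3215 and 3622 CPM in LV-ATF7, and TP63, the basal transcription factor, was at 12.6 to 18.3 CPM and 219 to 238 CPM. KRT14, the partner keratin of KRT5, was low, with 0.37, 12.5 and 11.3 CPM in LV-NC and 1.38 to 1.82 CPM in LV-ATF7. The log2 fold changes of KRT5, TP63 and KRT14 without LV-NC replicate 1 were 3.24, 4.02 and -2.96. Of 8 fibroblast markers 3 were in the table, and they summed to 35.1 to 42.7 CPM in LV-NC and 17.4 to 21.8 CPM in LV-ATF7. They did not move together. The mean of COL1A1 was 36.7 CPM in LV-NC and 16.8 CPM in LV-ATF7, and that of THY1 1.03 and 0.037 CPM. DCN went the other way, with means of 0.55 and 2.67 CPM, and was at 0 in LV-NC replicates 2 and 3. Of 6 macrophage markers 3 were in the table, summing to 5.57 to 8.13 CPM and 9.38 to 12.7 CPM. Of 6 endothelial and melanocyte markers 3 were in the table, summing to 2.998 to 7.58 CPM and 88.7 to 95.9 CPM. In LV-ATF7 most of that sum was CDH5, at 81.0 to 86.2 CPM, against 0.64 to 4.86 CPM in LV-NC. The remaining markers of the non-keratinocyte lists were not in the table. Markers that were in it but are not named here enter only the counts and sums above. The part that these shifts play in the values below was not tested, and in bulk RNA fewer cells of a type and less RNA per cell cannot be told apart.

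Between the groups, 5 of the 10 genes passed an adjusted p of 0.05, with SPRY4, ETV5 and SPRED1 lower and DUSP4 and DUSP5 higher in LV-ATF7. Change was widespread in this comparison. Of 12462 genes tested, 67.6% passed, 34.7% as higher and 32.9% as lower, so 5 of 10 was no larger a share than in the table as a whole. Adding a fold change of at least 1.5 left SPRY4, ETV5 and DUSP4, against 52.9% of all genes. The 3 libraries of a group lay wholly above or below the other 3 for the same 5 genes that passed the test, and this held for 72.7% of all genes. The median log2 fold change was -0.14 over the 10 genes and 0.00016 over all genes tested. Without LV-NC replicate 1, 7 of 10 passed against 80.1% of all genes, the additions being SPRY2 and ETV4, both lower in LV-ATF7.

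**Figure D1:**
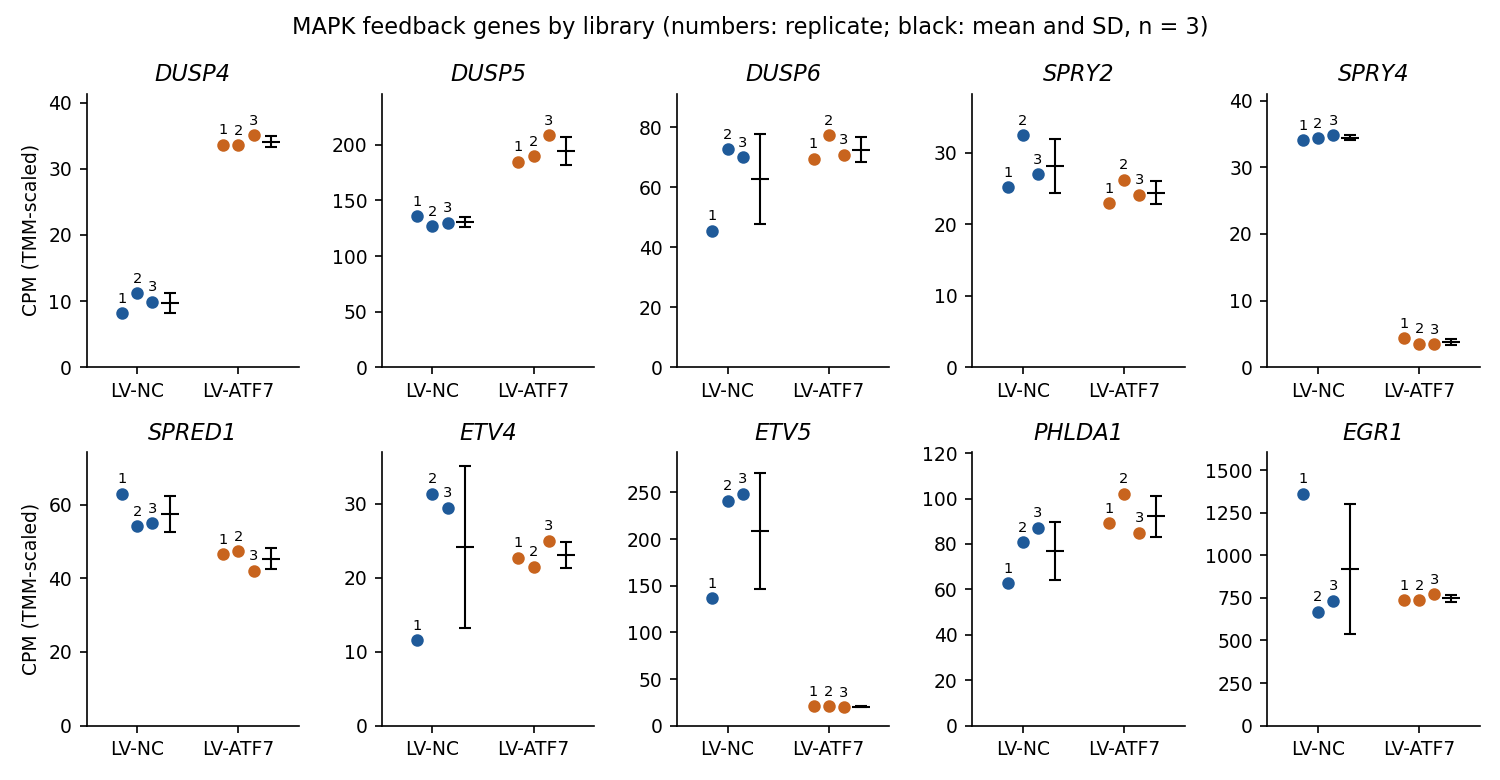
Level of each of the 10 genes in CPM (y axis, from 0) in the 3 LV-NC (blue) and 3 LV-ATF7 (orange) libraries, with replicate numbers, and the mean and SD of each group in black. SPRY4 and ETV5 sit far lower and DUSP4 far higher in all 3 LV-ATF7 libraries, while LV-NC replicate 1 lies apart from replicates 2 and 3 for EGR1, ETV4, ETV5 and DUSP6.

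Among the phosphatases, DUSP4 is a nuclear enzyme that acts on ERK, JNK and p38. The gene lies on the minus strand of chromosome 8 (GRCh38, chr8:29333064-29350668) and shares no exon bases with other genes. DUSP4 was at 8.14, 11.2 and 9.90 CPM in LV-NC replicates 1 to 3 and at 33.7, 33.5 and 35.1 CPM in LV-ATF7. The groups did not overlap and each was tight. DUSP4 rose 3.50-fold (log2 fold change 1.81 ± 0.14, SE, adjusted p = 2.01e-05), and its value without LV-NC replicate 1 was 1.67 ± 0.11.

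DUSP5, a nuclear phosphatase with a strong preference for ERK, lies at chr10:110497838-110511544 on the plus strand. It was at 136, 127 and 130 CPM in LV-NC and 185, 190 and 209 CPM in LV-ATF7. All LV-ATF7 libraries were above all LV-NC libraries, and LV-NC replicate 1 was in step with its group. The rise was 1.49-fold (log2 fold change 0.57 ± 0.09, SE, adjusted p = 0.00062), and 0.58 ± 0.07 without LV-NC replicate 1.

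DUSP6, the cytoplasmic ERK phosphatase most often used as a readout of ERK activity, lies at chr12:89347232-89353271 on the minus strand. It was at 45.5, 72.7 and 70.0 CPM in LV-NC and 69.5, 77.4 and 70.9 CPM in LV-ATF7. LV-NC replicate 1 was low, and LV-NC replicates 2 and 3 lay inside the LV-ATF7 range. The log2 fold change was 0.21 ± 0.17 (SE, adjusted p = 0.308) with all libraries and 0.0056 ± 0.083 (adjusted p = 0.953) without LV-NC replicate 1. Opposite-strand genes overlap 40.5% of the exon bases of DUSP6, and since the strand setting of the counting is not given in the sources used here, reads of the 2 strands may be mixed in its counts.

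Of the 7 other MAP kinase phosphatases listed, 3 were higher and 3 lower in LV-ATF7, beside 34.7% and 32.9% of all genes. DUSP9, an ERK phosphatase, rose by 2.995 ± 0.52 on the log2 scale (SE, adjusted p = 0.00116) from 0.16 to 1.52 CPM up to 6.25 to 9.51 CPM. Its LV-NC values rest on 3, 29 and 24 counts. DUSP2, an inducible nuclear enzyme, rose by 2.04 ± 0.26 (adjusted p = 0.000212) from 1.07 to 1.94 CPM up to 5.41 to 7.19 CPM. DUSP1, a stress-induced phosphatase that prefers p38 and JNK, had a log2 fold change of -1.01 ± 0.17 (adjusted p = 0.00103), from 150 to 226 CPM down to 80.9 to 93.6 CPM. All 7 passed without LV-NC replicate 1, 4 as higher and 3 as lower, in a fit where 80.1% of all genes passed. There DUSP9 was at 2.46, DUSP2 at 1.80 and DUSP1 at -0.80.

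Counted per kilobase of exon, the 10 phosphatases together were at 186 ± 24.0 CPM per kb in LV-NC and 177 ± 8.81 in LV-ATF7 (mean ± SD, n = 3). The ranges of this sum overlapped, at 172 to 214 and 167 to 184. The sum depends on the gene lengths and the scaling used. In the deposited FPKM means, which use others, DUSP1 was at 92.7 in LV-NC and 41.0 in LV-ATF7, and DUSP5 at 42.0 and 55.7. DUSP1 made up 46.2% ± 5.26 of the sum in LV-NC and 24.4% ± 1.19 in LV-ATF7. DUSP5 made up 27.0% ± 2.43 and 42.0% ± 1.51, and DUSP4 0.74% ± 0.19 and 2.66% ± 0.11. DUSP5 thus stood above DUSP1 in every LV-ATF7 library and below it in every LV-NC library, and DUSP4 remained a minor part of the class despite its fold change.

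Of the Sprouty genes, SPRY4 lies at chr5:142310427-142326455 on the minus strand, with no exon bases shared. Sprouty proteins are induced by growth factors and hold back RAS activation downstream of receptor tyrosine kinases. SPRY4 was at 34.1, 34.3 and 34.8 CPM in LV-NC, backed by 601 to 655 counts, and at 4.35, 3.52 and 3.43 CPM in LV-ATF7, backed by 62 to 78 counts. The 3 LV-NC libraries were nearly equal, replicate 1 included, and all 3 LV-ATF7 libraries were far below them. SPRY4 was 9.12-fold lower in LV-ATF7 (log2 fold change -3.19 ± 0.14, SE, adjusted p = 1.86e-06). Without LV-NC replicate 1 the log2 fold change was -3.22 ± 0.13.

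SPRY2, at chr13:80335976-80340951 on the minus strand, encodes the related Sprouty protein that also binds the ubiquitin ligase CBL. It was at 25.2, 32.4 and 27.0 CPM in LV-NC and 22.9, 26.2 and 24.1 CPM in LV-ATF7. The groups overlapped through LV-NC replicate 1 and LV-ATF7 replicate 2. The log2 fold change was -0.21 ± 0.13 (SE, adjusted p = 0.191). Without LV-NC replicate 1 it was -0.30 ± 0.11 (adjusted p = 0.0126), which passed.

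SPRY4 and SPRY2 are shown with the promoter bases held for them, because these paralogs differed so much in change. The bases are from RefSeq (GRCh38.p14), written 5′ to 3′ on the gene's strand, and stop before any annotated exon of the gene. That of SPRY4 is chr5:142324418-142324497, which lies inside the outer bounds of the GENCODE gene, and that of SPRY2 is chr13:80341127-80341376, upstream of the GENCODE gene. SPRY2 has 3 such windows, and the one printed is the only one of them with a motif match. Capitals mark matches on either strand to the CREB/ATF core TGACG, the ETS core CCGGAA or the EGR site GCGNGGGCG.
SPRY4: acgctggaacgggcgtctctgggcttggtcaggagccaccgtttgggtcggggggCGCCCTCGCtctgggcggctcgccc
SPRY2: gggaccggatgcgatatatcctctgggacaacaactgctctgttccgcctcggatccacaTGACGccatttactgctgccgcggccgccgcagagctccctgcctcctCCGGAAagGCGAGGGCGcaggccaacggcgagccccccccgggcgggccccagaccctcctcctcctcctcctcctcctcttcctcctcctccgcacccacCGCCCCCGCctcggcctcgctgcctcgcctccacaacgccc
The stretch of SPRY4 holds 1 EGR match at -195 from the start site, and a TGACG core at -68 lies in the unprinted rest of its window. That of SPRY2 holds TGACG at -190, the ETS core at -142 and EGR matches at -134 and -41. Among 34943 windows of 300 bases around RefSeq gene starts, 24.5% hold TGACG, 17.2% the ETS core and 9.41% the EGR site, so none of these is rare. The full CRE TGACGTCA (1.84% of windows), the AP-1 site TGANTCA (7.72%) and the CIC octamers TGAATGAA (1.65%) and TGAATGGA (1.02%) were found in no window of the 6 members that had one (SPRY2, SPRY4, EGR1, PHLDA1, DUSP6 and SPRED1). A match of letters is a description and was not tested as a binding site.

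SPRY1, another Sprouty gene, moved opposite to SPRY4, at 5.78, 5.82 and 4.46 CPM in LV-NC and 17.5, 16.8 and 14.4 CPM in LV-ATF7 (log2 fold change 1.599 ± 0.17, SE, adjusted p = 8.03e-05, and 1.63 without LV-NC replicate 1). In raw counts there were 5.89, 5.90 and 7.81 SPRY4 counts per SPRY1 count in the LV-NC libraries and 0.25, 0.21 and 0.24 in the LV-ATF7 libraries. Per SPRY2 count there were 1.35, 1.06 and 1.29 SPRY4 counts in LV-NC and 0.19, 0.13 and 0.14 in LV-ATF7. These ratios need no scaling between libraries, and the groups were far apart on both. They were chosen after the values were seen and carry no test. Per kilobase of exon, the 4 Sprouty genes summed to 16.2 ± 1.25 CPM per kb in LV-NC and 12.9 ± 0.68 in LV-ATF7 (mean ± SD, n = 3). SPRY4 made up 32.5% ± 2.46 and then 4.46% ± 0.64 of that sum, SPRY1 8.36% ± 1.13 and then 31.8% ± 2.50, and SPRY2 57.2% ± 3.36 and then 62.3% ± 3.06. SPRY2 was therefore the leading Sprouty transcript in both groups, and the second place passed from SPRY4 to SPRY1.

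SPRED1, at chr15:38252326-38357249 on the plus strand, encodes an inhibitor that brings neurofibromin to RAS. It was at 63.0, 54.2 and 54.9 CPM in LV-NC and 46.6, 47.4 and 42.1 CPM in LV-ATF7. The groups did not overlap, but the gap between them was small. SPRED1 had a log2 fold change of -0.34 ± 0.10 (SE, adjusted p = 0.0196), and of -0.28 ± 0.09 without LV-NC replicate 1. Without LV-ATF7 replicate 3 the value was -0.29 and it no longer passed (adjusted p = 0.0644). Of the 4 other Sprouty and SPRED genes listed, SPRY1 rose and SPRED3, a low-abundance relative of SPRED1, fell by 0.60 on the log2 scale (SE 0.22, adjusted p = 0.0378). SPRED3 no longer passed without LV-NC replicate 1 (-0.39, adjusted p = 0.054) or without any of the LV-ATF7 libraries (adjusted p = 0.0856 to 0.109), nor with the replicate number as a block (-0.57, adjusted p = 0.0542).

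**Figure D2:**
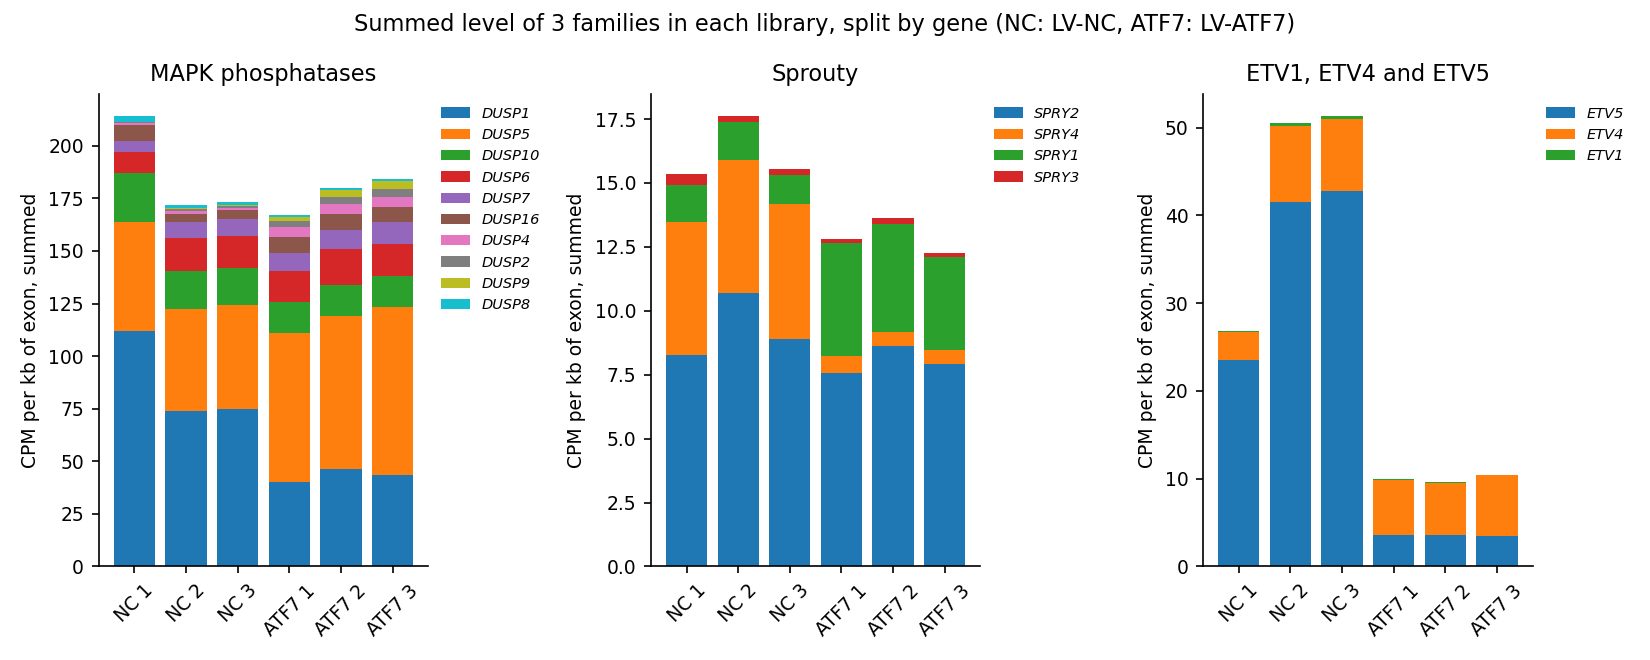
CPM per kilobase of exon (y axis, from 0) of the MAP kinase phosphatases, the Sprouty genes and ETV1, ETV4 and ETV5, stacked by gene for each of the 6 libraries. The phosphatase sums overlap between groups, SPRY4 nearly disappears from the Sprouty bars while SPRY1 grows, and the ETV bars shrink from 26.8 to 51.3 in LV-NC down to 9.57 to 10.4 in LV-ATF7 as ETV5 shrinks.

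Among the ETS factors, ETV5 lies at chr3:186046308-186110318 on the minus strand and shares 2.83% of its exon bases with DGKG on the same strand. ETV5 was at 137, 241 and 249 CPM in LV-NC and 20.6, 20.8 and 20.1 CPM in LV-ATF7. All LV-NC libraries were far above all LV-ATF7 libraries, with LV-NC replicate 1 the lowest of its group, 1.79-fold under the mean of replicates 2 and 3. ETV5 was 10.2-fold lower in LV-ATF7 (log2 fold change -3.35 ± 0.23, SE, adjusted p = 1.09e-05). Without LV-NC replicate 1 the difference was 12.1-fold (-3.60 ± 0.08). It was the largest change among the 10 genes in either fit.

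ETV4, its close paralog at chr17:43527844-43579620 on the minus strand, was at 11.6, 31.3 and 29.5 CPM in LV-NC and 22.7, 21.5 and 25.0 CPM in LV-ATF7. LV-NC replicate 1 was below every LV-ATF7 library and LV-NC replicates 2 and 3 were above all of them. With all libraries the log2 fold change was -0.065 ± 0.33 (SE, adjusted p = 0.871). Without LV-NC replicate 1 it was -0.42 ± 0.10 (adjusted p = 0.000593), so the call for ETV4 is decided by that library. Its sign also turned when LV-NC replicate 2 or 3 was left out, at 0.14 and 0.068.

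In raw counts there were 11.8, 7.69 and 8.43 ETV5 counts per ETV4 count in the LV-NC libraries, and 0.91, 0.97 and 0.80 in the LV-ATF7 libraries. The pair thus went from a large excess of ETV5 to near parity, in every library including LV-NC replicate 1. Per kilobase of exon, ETV5 made up 84.5% ± 2.88 of the sum of ETV1, ETV4 and ETV5 in LV-NC and 35.5% ± 2.19 in LV-ATF7 (mean ± SD, n = 3), and ETV4 15.03% ± 2.75 and 64.1% ± 2.22. ETV1, the remaining member of the subfamily, gave at most 0.62% of the sum in any library. Its counts were 14, 46 and 53 in LV-NC and 10, 5 and 5 in LV-ATF7. On these low counts ETV1 too was lower in LV-ATF7 (log2 fold change -2.498 ± 0.60, SE, adjusted p = 0.00614). Without LV-NC replicate 1 its value was -2.92. Which of ETV5 and ETV4 leads in LV-ATF7 depends on the gene length used. The deposited FPKM means there were 1.56 for ETV5 and 1.43 for ETV4, beside 17.6 and 1.66 in LV-NC.

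The 6 other ETS factors listed, ETV1 included, all passed, 4 higher and 2 lower in LV-ATF7, where 67.6% of all genes passed. ETS2, a growth-factor-responsive ETS factor, rose by 1.36 ± 0.17 on the log2 scale (SE, adjusted p = 0.00021). ELK1, a ternary complex factor that ERK phosphorylates, had a log2 fold change of -0.88 ± 0.18 (adjusted p = 0.00267), and its relative ELK4 one of 0.65 ± 0.19 (adjusted p = 0.0146). ELK4 did not pass without LV-NC replicate 2 (adjusted p = 0.0592), LV-NC replicate 3 (0.0712) or LV-ATF7 replicate 1 (0.0543), nor with library size only (0.48, adjusted p = 0.0707). CIC, the repressor of ETV4 and ETV5, was at 136, 111 and 133 CPM in LV-NC and 198, 198 and 223 CPM in LV-ATF7, higher in every LV-ATF7 library (0.70 ± 0.11, adjusted p = 0.000627). Its partner ATXN1L had a log2 fold change of -0.42 ± 0.11 (adjusted p = 0.0122), and the third gene of that list, ATXN1, did not pass. With LV-NC replicate 1 left out, the values were 1.57 for ETS2, -1.09 for ELK1, 0.88 for ELK4, 0.73 for CIC and -0.32 for ATXN1L.

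PHLDA1, a pleckstrin-homology-like protein induced by growth factors, lies at chr12:76025447-76033932 on the minus strand. It was at 62.7, 80.9 and 87.2 CPM in LV-NC and 89.3, 102 and 84.9 CPM in LV-ATF7. The groups overlapped through LV-NC replicate 3 and LV-ATF7 replicate 3. The log2 fold change was 0.26 ± 0.14 (SE, adjusted p = 0.133), and 0.11 ± 0.09 without LV-NC replicate 1. Opposite-strand genes overlap 16.5% of its exon bases. Both other PHLDA genes listed passed as higher, as did 34.7% of all genes. PHLDA3, a p53-induced inhibitor of AKT, was at 0.66 ± 0.09 (adjusted p = 0.000373) and PHLDA2 at 0.31 ± 0.12 (adjusted p = 0.0485). PHLDA2 did not pass when LV-NC replicate 2 or 3 was left out (adjusted p = 0.0778 and 0.127), nor when LV-ATF7 replicate 2 or 3 was (0.125 and 0.15). It also failed with library size only (0.14, adjusted p = 0.263), with DESeq2 (adjusted p = 0.0654) and with the filter of 10 counts (adjusted p = 0.0509), and passed in 6 of 13 alternatives. Values without LV-NC replicate 1 were 0.67 for PHLDA3 and 0.24 for PHLDA2.

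EGR1, a zinc-finger transcription factor and immediate early gene, lies at chr5:138465490-138469315 on the plus strand. It was at 1361, 669 and 733 CPM in LV-NC and 735, 736 and 771 CPM in LV-ATF7. LV-NC replicate 1 was far above the other 5 libraries, which lay close together. The log2 fold change was -0.30 ± 0.25 (SE, adjusted p = 0.315) with all libraries and 0.073 ± 0.063 (adjusted p = 0.289) without LV-NC replicate 1, so its sign rests on that library.

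The promoter bases of EGR1 are from RefSeq (GRCh38.p14, chr5:138465229-138465478, plus strand, 5′ to 3′). They are shown because, among the 6 members with a window, only EGR1 held serum response elements. Capitals mark an EGR match at -198, reverse-strand TGACG cores at -135 and -66, and serum response elements (CArG boxes) at -105 and -83.
EGR1: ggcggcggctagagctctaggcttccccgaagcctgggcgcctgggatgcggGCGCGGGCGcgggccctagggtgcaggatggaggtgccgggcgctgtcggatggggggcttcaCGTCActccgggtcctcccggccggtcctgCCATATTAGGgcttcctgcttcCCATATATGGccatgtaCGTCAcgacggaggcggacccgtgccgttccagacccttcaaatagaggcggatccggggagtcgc
The CArG box is found in 1.30% of the 34943 windows, and among the 6 members with a window only EGR1 holds it. DUSP4, DUSP5, ETV4 and ETV5 had no window to search. The windows of DUSP6 and SPRED1 held none of the motifs, and that of PHLDA1 held 1 ETS core. Serum response elements are known to bind serum response factor together with ternary complex factors such as ELK1.

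The high value of EGR1 in LV-NC replicate 1 was shared by other immediate early genes. EGR1 was 1.94-fold above the mean of LV-NC replicates 2 and 3 there. Of the 8 other immediate early genes in the table, 6 were at least 1.5-fold above it, namely FOS, FOSB, JUN, ATF3, EGR2 and EGR3, at 1.54- to 2.30-fold, and none was 1.5-fold below, while 12.2% of all genes were at least 1.5-fold above. The 10 genes did not all move with them. ETV4, ETV5 and DUSP6 were 2.63-, 1.79- and 1.57-fold below the mean of replicates 2 and 3 in the same library, and the other 6 were within 1.5-fold. In all, 4 of the 10 genes were past 1.5-fold in either direction, against 24.3% of all genes. Other genes of the same families departed there in both directions. DUSP16 (2.04-fold), DUSP8 (1.96-fold), SPRY3 (1.82-fold), SPRED3 (1.53-fold) and DUSP1 (1.503-fold) were high. DUSP9 (9.06-fold), ETV1 (3.66-fold) and DUSP2 (1.69-fold) were low, with 3, 14 and 20 counts in that library. This compares a library with others of its group and has no replicate check.

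**Figure D3:**
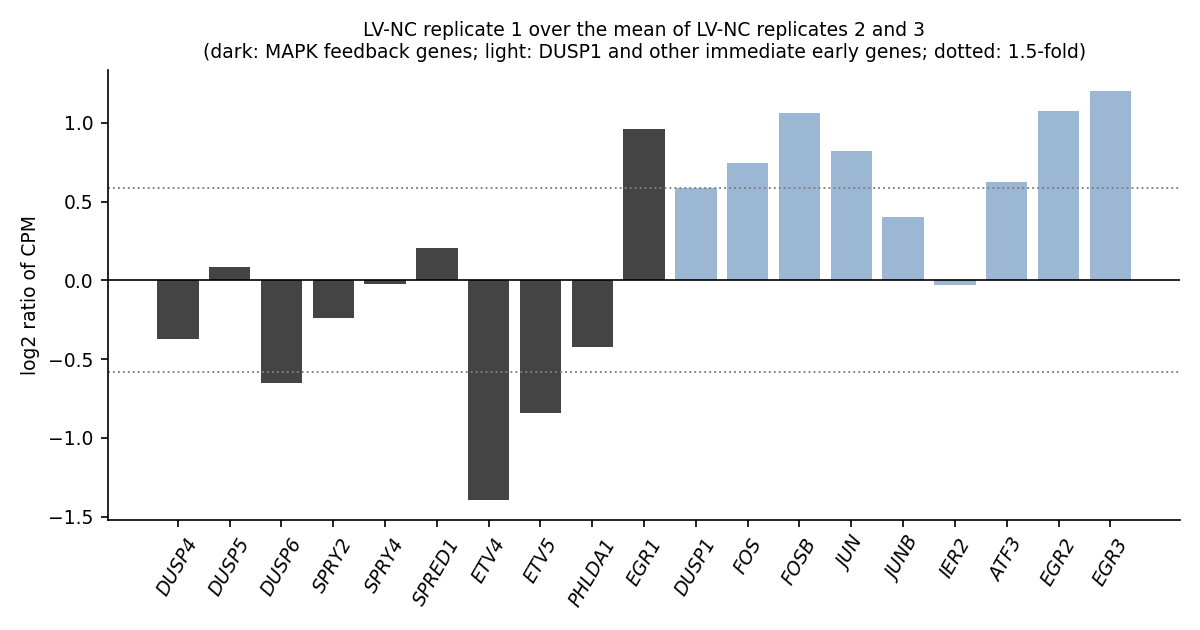
Log2 ratio of CPM in LV-NC replicate 1 over the mean of LV-NC replicates 2 and 3 (y axis) for the 10 genes (dark) and for DUSP1 and the other immediate early genes (light), with 1.5-fold marked by dotted lines. EGR1 is up with FOS, FOSB, JUN, ATF3, EGR2 and EGR3, while ETV4, ETV5 and DUSP6 are down.

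Between the groups, the other immediate early genes gave 1 higher and 4 lower of 8 tested, beside 34.7% and 32.9% of all genes. ATF3, a stress-induced CREB/ATF factor, had a log2 fold change of -2.05 ± 0.18 (SE, adjusted p = 3.41e-05), from 548 to 848 CPM down to 151 to 161 CPM. JUN, a subunit of AP-1, was at -0.92 ± 0.22 (adjusted p = 0.00588), and FOSB, another subunit, at -0.83 ± 0.27 (adjusted p = 0.0269). Both were highest in LV-NC replicate 1, and without it their log2 fold changes were -0.62 and -0.40, and that of ATF3 was -1.83. FOSB did not pass when any of the LV-ATF7 libraries was left out (adjusted p = 0.0739 to 0.086). All 8 passed without LV-NC replicate 1, 4 higher and 4 lower, FOS, EGR2 and EGR3 being the additions, all higher in LV-ATF7. In that fit 80.1% of all genes passed.

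**Figure D4:**
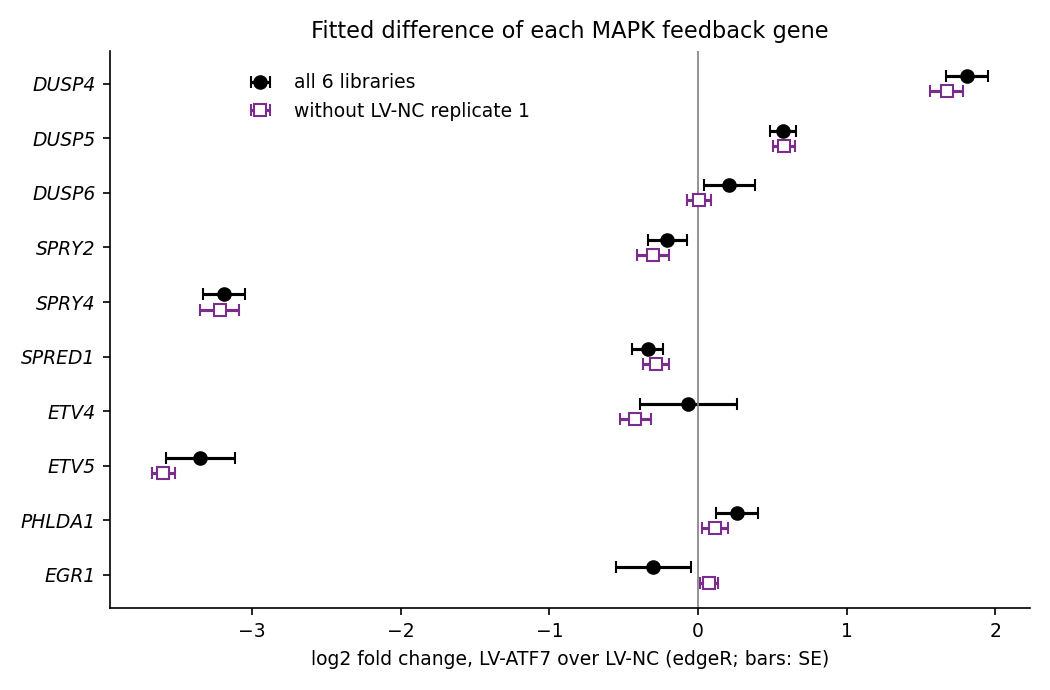
Log2 fold change of each of the 10 genes, LV-ATF7 over LV-NC (x axis), with SE bars, from all 6 libraries (black) and without LV-NC replicate 1 (open squares). SPRY4 and DUSP5 move least, ETV5 goes from -3.35 to -3.60, ETV4 shifts from -0.065 to -0.42 and EGR1 goes from -0.30 to 0.073.

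Further along the pathway, the signal carriers moved in both directions. Of 21 genes from the adaptors to the kinases downstream of ERK, 4 were higher, 8 lower and 9 did not pass, and without LV-NC replicate 1 there were 9 higher and 9 lower. Among all genes, 67.6% passed with all libraries and 80.1% without LV-NC replicate 1. MAPK3, which encodes ERK1, was at 12.5, 8.60 and 8.63 CPM in LV-NC and 63.2, 65.4 and 68.8 CPM in LV-ATF7, a rise of 2.73 ± 0.16 on the log2 scale (SE, adjusted p = 5.93e-06). GRB2, the adaptor that links receptors to SOS, was at 368, 452 and 458 CPM in LV-NC and 178, 181 and 194 CPM in LV-ATF7 (-1.21 ± 0.11, adjusted p = 4.56e-05). MKNK2, a kinase that ERK and p38 activate, had a log2 fold change of -0.95 ± 0.11 (adjusted p = 0.000123). Of 8 other attenuators, 2 were higher and 3 lower, beside 34.7% and 32.9% of all genes. ERRFI1, a feedback inhibitor of the EGF receptor, was at 167, 170 and 173 CPM in LV-NC and 49.0, 48.1 and 45.2 CPM in LV-ATF7 (-1.84 ± 0.09, adjusted p = 2.14e-06), and LV-NC replicate 1 was in step with its group. PEA15, which holds ERK in the cytoplasm, and CBL, a ubiquitin ligase for receptors, were at -0.70 ± 0.09 and -0.68 ± 0.10 (adjusted p = 0.000265 and 0.000538). Leaving out LV-NC replicate 1 gave 2.91 for MAPK3, -1.32 for GRB2, -1.03 for MKNK2, -1.87 for ERRFI1, -0.66 for PEA15 and -0.66 for CBL.

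Of 6 other ERK output genes, 3 were higher and 2 lower in LV-ATF7, beside 34.7% and 32.9% of all genes. MYC, the growth-promoting transcription factor, was at 210, 153 and 153 CPM in LV-NC and 792, 795 and 810 CPM in LV-ATF7 (log2 fold change 2.22 ± 0.14, SE, adjusted p = 8.27e-06). CCND1, which encodes cyclin D1, was at 164, 157 and 174 CPM and then 502, 515 and 508 CPM (1.62 ± 0.09, adjusted p = 4.02e-06). FOSL1, the AP-1 subunit FRA1, was at 73.8, 158 and 153 CPM and then 29.03, 34.2 and 36.6 CPM (-1.95 ± 0.28, adjusted p = 0.000411). In the fit without LV-NC replicate 1 the values were 2.37 for MYC, 1.598 for CCND1 and -2.24 for FOSL1. Genes usually read as outputs of the same kinase thus stood on both sides of the comparison, as the 10 feedback genes and the genes of the whole table did. Over the 9 other lists together, 21 of 65 tested genes were higher, 24 lower and 20 did not pass, and the median log2 fold change was 0.015. The share that passed was 69.2%, beside 67.6% of all genes, and without LV-NC replicate 1 it was 55 of 65 genes, beside 80.1%.

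**Figure D5:**
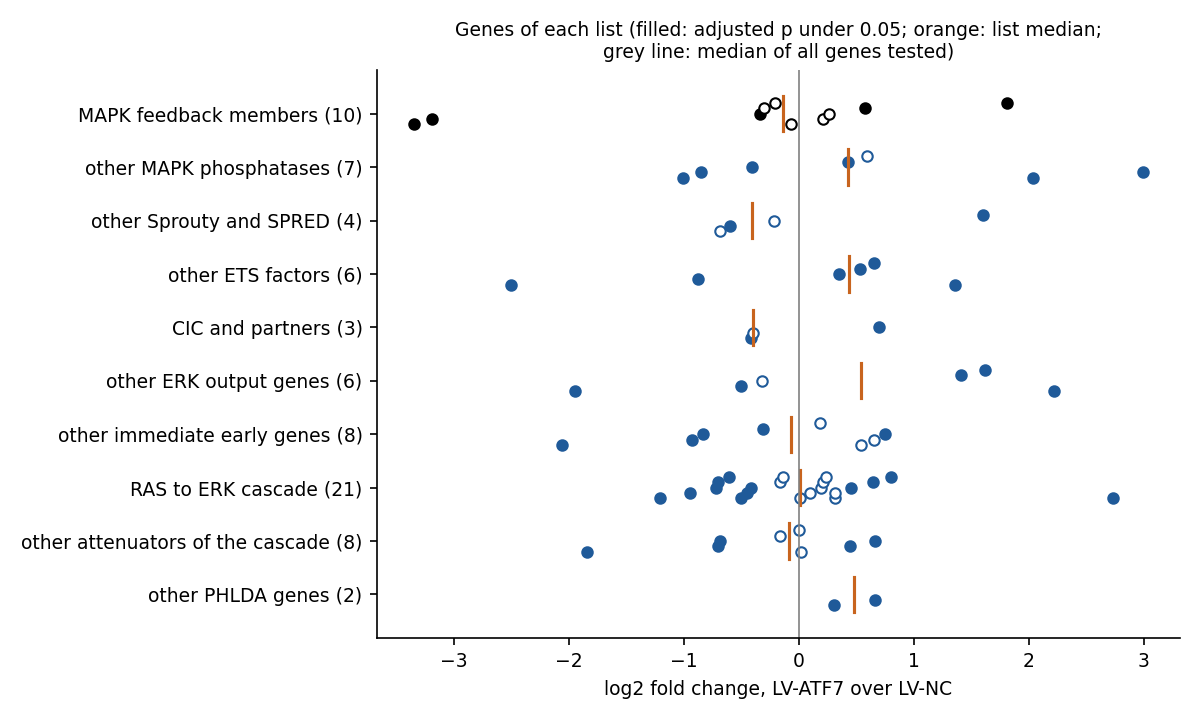
Log2 fold change, LV-ATF7 over LV-NC (x axis), of every tested gene of the 10 lists (numbers of genes in brackets), filled where the adjusted p was under 0.05, with list medians in orange and the median of all genes as a grey line. Genes of every list but the other PHLDA genes lie on both sides of 0, and the medians run from -0.41 to 0.54.

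Per kilobase of exon, which allows genes to be compared, EGR1 was the most abundant of the 10 in both groups, at 293 ± 122 CPM per kb in LV-NC and 238 ± 6.55 in LV-ATF7 (mean ± SD, n = 3). DUSP5 was next, at 50.04 ± 1.77 and 74.4 ± 4.77. ETV5 held the third place in LV-NC at 36.0 ± 10.8 and the ninth in LV-ATF7 at 3.53 ± 0.07. DUSP6 followed at 13.5 ± 3.23 and 15.7 ± 0.91, and PHLDA1 at 9.53 ± 1.57 and 11.4 ± 1.11. SPRY2 was at 9.28 ± 1.25 and 8.04 ± 0.54, SPRED1 at 6.94 ± 0.59 and 5.49 ± 0.35, and ETV4 at 6.69 ± 3.03 and 6.39 ± 0.50. SPRY4 was at 5.24 ± 0.06 in LV-NC and at 0.57 ± 0.08, the lowest of all, in LV-ATF7. DUSP4 was the lowest in LV-NC at 1.34 ± 0.21 and rose to the eighth place at 4.70 ± 0.12. In LV-NC the library ranges of neighbours overlapped for DUSP6 and PHLDA1, PHLDA1 and SPRY2, SPRED1 and ETV4, and ETV4 and SPRY4, and in LV-ATF7 no neighbours overlapped. The gene lengths behind the deposited FPKM values gave another rank to 4 of the 10 in LV-NC and to 5 in LV-ATF7.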

How the data were processed

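RNA-seq was performed on HaCaT cells with poly(A) capture and random priming, 3 libraries per group. The authors deposited a table of raw counts per gene, with FPKM values beside them. GRCh38 is the build in the submitters' processing notes, and the aligner, counter, annotation and strand setting are not given in the sources used here. The table also holds fold changes and p-values of the authors' own comparison, which were not used. The smallest total over the 6 libraries in the table was 51 counts, so it lists no gene without reads. Deposited FPKM values served only to rank levels. For genes with 200 or more counts, the length implied by FPKM and counts was a median of 2.70 times the exons counted once in LV-NC replicate 2, and 1.00 times the exons of all transcripts added up.

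Counts were analysed with edgeR 4.0.16 (R 4.3.3), with TMM scaling, filterByExpr and the quasi-likelihood test, on 12462 of 12499 genes, and p-values were adjusted by Benjamini-Hochberg over all of them. A gene passed at an adjusted p under 0.05. The test gives no SE, so each SE of a log2 fold change is its absolute value over the square root of the test's F statistic. The code was tested on simulated counts in which few genes differed between the groups. That test does not cover data in which most genes pass, as here. Positions, exon lengths and shared exons are from GENCODE release 29, matched by gene identifier (12485 of 12499 found). Promoters are the RefSeq windows of 250 bases before to 50 after each start. Other choices tried were library size only, upper-quartile scaling, DESeq2 1.42.0, limma 3.58.1 voom with sample quality weights, dropping the filter, keeping genes with 10 or more counts throughout, a replicate block and leaving out each library. Library totals of 16686472 to 20562768 gave each of the 10 genes at least 62 counts in every library.

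The 10 genes and the lists were chosen with earlier results of these data known. Named beside them are ATF7, KRT5, KRT14, TP63 and, per list, up to 3 passing genes whose mean count was 50 or more, taken by the largest absolute log2 fold change. Other genes named in passing, such as ATXN1, ETV1 and CDH5, as well as the count ratios and the look at LV-NC replicate 1, were chosen after the values were seen.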

Additional observations from a re-analysis of the deposited data

How the results depend on the processing

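SPRY4, ETV5, DUSP4 and DUSP5 passed with the same direction in all 13 alternative fits, and DUSP6 and EGR1 in none. The number of the 10 genes passing was 5 with all libraries, 8 by limma voom with sample quality weights (83.4% of all genes passed there) and 3 with a fold change of at least 1.5. It ranged from 4 to 7 when a library was left out, in fits where 7290 to 10011 of all genes passed. The number lower in LV-ATF7 ranged from 2 to 5 in those fits, the latter without LV-NC replicate 1. That number was also 5 by limma voom, which gave that library a weight of 0.09. ETV4 turned sign with the replicate block (0.044) and ranged from -0.42 without LV-NC replicate 1 to 0.14 without LV-NC replicate 2, with 0.068 without LV-NC replicate 3. EGR1 turned sign by limma voom (0.048) and ranged from -0.53 without LV-NC replicate 2 to 0.073 without LV-NC replicate 1. SPRY2 passed with library size only, by limma voom and without LV-NC replicate 1, and PHLDA1 by limma voom. Of the 24 other genes named by the rule, 20 kept their direction and side of the threshold in every alternative that fitted them. DUSP9, among these, was dropped by the 10-count filter and was fitted in 12 alternatives. SPRED3 (block and left-out libraries), ELK4 (library size only and left-out libraries), PHLDA2 (those, DESeq2 and the 10-count filter) and FOSB (left-out libraries) did not keep them. ATF7 was lower in LV-ATF7 in every fit. With no scaling beyond library size, log2 fold changes shifted by a median of -0.16, and none of the 10 changed sign. Numbers shared by replicates did not pair the libraries (correlations of deviations 0.06, -0.02 and 0.06), and with the replicate block the same 5 of the 10 passed. The causes were not tested. With 3 libraries per group, differences as small as those of PHLDA1 and SPRY2 had standard errors of 0.14 and 0.13 on the log2 scale.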
